A study of Mus musculus with 4 samples.

Results

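Neurofilament and neuronal cytoskeleton genes are described here across 4 clonal lines of c17.2, a mouse neural stem cell line immortalised from newborn cerebellum. The genes were chosen by symbol: Nefl, Nefm, Nefh, Tubb3, Map2, Map1b, Mapt, Gap43, Dpysl3 and Crmp1. All 10 genes were represented, by 13 of 12403 gene probe sets. A probe set is the group of short oligonucleotides on an Affymetrix array that reports on a transcript. All lines were grown in proliferating conditions. Clone 42 and clone 48 were stable transfectants for Nurr1, an orphan nuclear receptor of midbrain dopaminergic neurons, and puroB and puroD were stable transfectants of the empty puromycin vector. According to the labels, clone 42 was matched to puroB, and clone 48 to puroD, for their proliferation rates. The series' design text names clone 42 in both comparisons, with c48 in brackets in the one with puroD, and the sample descriptions were followed. Each line is a single clone measured on 1 array, so that clone and array cannot be told apart, and p-values measure the spread between these 4 arrays only.

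Neurofilaments are the intermediate filaments of axons and assemble from a light (Nefl), a medium (Nefm) and a heavy (Nefh) chain, the heavy chain being known as the late-appearing one. Tubb3 is the class of beta-tubulin used in textbooks as an early marker of neurons. Map2, Map1b and tau (Mapt) bind and stabilise microtubules in dendrites and axons, Gap43 is a membrane protein of growth cones, and Dpysl3 and Crmp1 belong to the collapsin response mediators, which relay semaphorin signals to the cytoskeleton.

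Values are MAS5 signals scaled to a common trimmed mean. The highest control for transcripts that had not been spiked in, read here as a background level, was 62.6 on clone 42, 39.1 on clone 48, 49.8 on puroB and 59.0 on puroD. Nr4a2, the gene of Nurr1, was not higher in the clones labelled as carrying it (at probe set 92248_at clone 42 read 320 and clone 48 read 206, while puroB read 485 and puroD 254), so they are called Nurr1-labelled clones below. At the other Nr4a2 probe set, 92249_g_at, clone 42 read 188 and clone 48 read 113, while puroB read 372 and puroD 213. The mean log2 difference there was -0.95 ± 0.34 (limma adjusted p = 0.453, unadjusted p = 0.0151). Whether these probe sets cover the transfected sequence is not given in the labels. Nes, a filament of neural progenitors, gave 3171 and 3716 in the Nurr1-labelled clones and 3323 and 3027 in the controls. Fabp7, a lipid-binding protein of radial glia, read 564 on clone 42 and 157 on clone 48, while puroB read 1291 and puroD 1537 (mean log2 difference -2.24 ± 0.40, limma adjusted p = 0.0503). Notch1, a receptor of progenitors, had a log2 difference of -0.38 at probe set 97497_at and of 0.48 at its other tested probe set. Of 11 neuron markers, 9 had a probe set, and 4 of these (Syp, Snap25, Elavl3 and Elavl4, genes of synapses and of neuronal RNA binding) lay under the background level on every array. Eno2, Stmn2 and Ncam1 were above that level on every array. Ncam1 was the brightest, at 703 and 934 in the Nurr1-labelled clones and 1277 and 661 in the controls. The summed signal of the 9 was 1243 to 1416 in the Nurr1-labelled clones and 1161 to 1916 in the controls. In whole lines such as these, fewer cells of a type and less RNA per cell cannot be told apart.

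Promoter windows of RefSeq (GRCm38.p6) were at hand for 4 of the 10 genes. Those of the tested members Tubb3 and Crmp1 are shown because the first gene rose and the other did not pass the test. Each window covers the 250 bases before the outermost annotated start, on the plus strand, at chr8:123411303-123411552 for Tubb3 and chr5:37241808-37242057 for Crmp1. Capitals mark the GC box, GGGCGG, on either strand.
Tubb3: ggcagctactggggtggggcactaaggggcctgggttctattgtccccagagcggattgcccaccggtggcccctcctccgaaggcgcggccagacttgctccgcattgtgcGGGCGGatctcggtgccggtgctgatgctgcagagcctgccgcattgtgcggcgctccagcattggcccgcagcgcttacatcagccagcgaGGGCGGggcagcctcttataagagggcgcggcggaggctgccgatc
Crmp1: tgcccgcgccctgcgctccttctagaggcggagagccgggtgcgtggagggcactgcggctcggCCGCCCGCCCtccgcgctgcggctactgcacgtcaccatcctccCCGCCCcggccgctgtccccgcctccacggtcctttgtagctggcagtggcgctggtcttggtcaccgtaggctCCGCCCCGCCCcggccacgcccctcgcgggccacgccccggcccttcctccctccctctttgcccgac
The GC box occurred at 2 positions in the Tubb3 window and at 5, some overlapping, in that of Crmp1, and 32.7% of all 32851 windows of this length held it. AAAGGTCA, the element known to bind Nurr1 as a monomer, occurred on neither strand in these windows, nor in the others of Crmp1, Map2 and Map1b, and 1.34% of all windows held it. These letters were searched on both strands, and their absence from 250 bases says nothing of binding elsewhere.

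Tubb3 was higher in the Nurr1-labelled clones at both of its probe sets and passed the test at 1 of the 2. The signal at 161612_f_at read 3042 on clone 42 and 2587 on clone 48, while puroB read 812 and puroD 809. Both Nurr1-labelled arrays were high, the controls were close to each other, and the groups did not overlap. The ratio was 3.75 in the pair of clone 42 and 3.20 in that of clone 48. The mean log2 difference was 1.79 ± 0.31 (SE, n = 2 clones per group; limma with the matched pair as a block, Benjamini-Hochberg adjusted p = 0.0487). This was the 1 call among the 8 member probe sets bright enough to be tested, where 0.109% of all 6419 tested probe sets were called (4 higher, which is 0.0623%, and 3 lower). With arrays scaled to equal medians, 56 were called (39 higher and 17 lower), and that scaling moved the median difference of all tested probe sets from -0.04 to 0.13. The call did not hold without the pair as a block (limma adjusted p = 0.566, with the difference again 1.79). It was also lost with quantile normalization, with a started log, and without the floor, the filter or the intensity trend (limma adjusted p from 0.0649 to 0.903). The call held with median scaling (limma adjusted p = 0.00242) and with a filter that asked for all 4 arrays above the median (4.4e-05). It also held with a floor at the highest control not spiked in (0.0362), a setting chosen after the data were seen. Fits that left out 1 array also dropped the pair as a block, so these changes cannot be told apart. The difference was 1.67 without clone 42, 1.91 without clone 48, and 1.79 without puroB or without puroD. The call was lost when either control was left out.

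The other Tubb3 probe set, 160462_f_at, differed in the same direction by less. Clone 42 read 5683 and clone 48 read 4628, while puroB and puroD both read 2701. The ratios were 2.10 and 1.71, the groups did not overlap, and the mean log2 difference of 0.92 ± 0.31 did not pass (limma adjusted p = 0.371, unadjusted p = 0.0104). In Affymetrix naming the ending _f_at marks a probe set whose probes may match several members of a sequence family, so that other beta-tubulin transcripts may add to both Tubb3 signals.

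**Figure D1:**
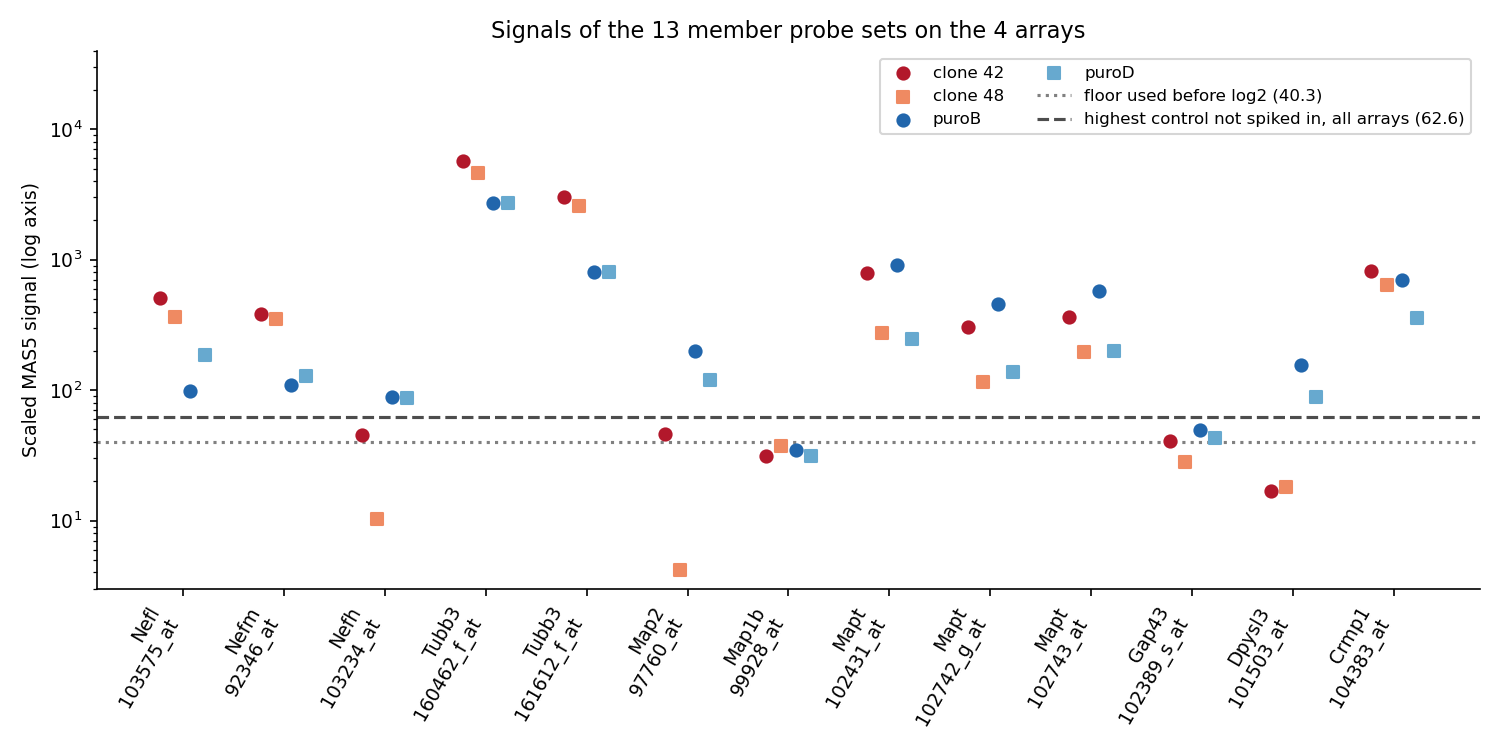
Scaled MAS5 signal (log axis) of each of the 13 member probe sets on the arrays of clone 42, clone 48, puroB and puroD, 1 point per array; the dotted line is the floor used before log2 (40.3) and the dashed line the highest control not spiked in on any array (62.6). Nefl, Nefm and both Tubb3 probe sets are higher in the Nurr1-labelled clones, Nefh, Map2 and Dpysl3 are above the dashed line in the controls alone, and Mapt separates the matched pairs.

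The light and medium neurofilament chains were higher in both Nurr1-labelled clones without passing the test. Nefl (103575_at) read 504 on clone 42 and 365 on clone 48, while puroB read 98.0 and puroD 186. Its groups did not overlap, although the control clones themselves differed 1.90-fold. The ratio of Nefl was 5.14 in the pair of clone 42 and 1.96 in the pair of clone 48, and the mean log2 difference was 1.67 ± 0.37 (SE, n = 2 clones per group; limma adjusted p = 0.105, unadjusted p = 0.000489). The difference was 1.20 without puroB and 2.13 without puroD, and lay between these when either Nurr1-labelled clone was left out.

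Nefm (92346_at) varied less between clones of the same label. Clone 42 read 380 and clone 48 read 349, while puroB read 110 and puroD 129. The ratios of 3.47 and 2.71 stood beside 1.18 between the controls and 1.09 between the Nurr1-labelled clones. The mean log2 difference was 1.61 ± 0.34 (limma adjusted p = 0.0853, unadjusted p = 0.000319). Nefm exceeded the brightness filter in the Nurr1-labelled clones alone, so a difference was a condition of its being tested. With median scaling Nefm and Nefl passed, at 1.78 (limma adjusted p = 0.00794) and 1.84 (0.00677). In the RefSeq gene table Nefl and Nefm are next to each other among the protein-coding genes of chromosome 14.

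The heavy chain did not follow the other chains. Nefh (103234_at) read 45.6 on clone 42 and 10.3 on clone 48, while puroB read 88.4 and puroD 87.0. Both Nurr1-labelled arrays were under their background level and both controls were above theirs, which makes the controls at least 1.41-fold and 2.23-fold higher in signal when the background level stands in for the dim array. Nefh was too dim to be tested. The background level rests on 15 control probe sets per array.

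Map2 and Dpysl3 showed the same arrangement as Nefh. Map2 (97760_at) read 45.8 on clone 42 and 4.20 on clone 48, while puroB read 198 and puroD 120. The controls were at least 3.16-fold and 3.08-fold higher in signal by the same bound. Dpysl3 (101503_at) read 16.8 on clone 42 and 18.2 on clone 48, while puroB read 156 and puroD 89.0, which is at least 2.49-fold and 2.28-fold higher in the controls. For these genes the groups did not overlap, and the lower group held no signal above background. This arrangement, picked out after the values were seen, occurred at 3 of the 13 member probe sets and at 0.726% of all 12403 gene probe sets; the reverse occurred at 0 members and at 0.5% of all. In a fit without the brightness filter, limma gave these 3 probe sets unadjusted p-values of 0.00603 (Nefh), 0.0202 (Map2) and 0.0449 (Dpysl3) and an adjusted p of 0.903 each. In that fit 0 probe sets passed at all, and 560 had an unadjusted p under 0.05.

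Mapt signals ran with the matched pair and not with the label, a pattern that was not tested. Its probe set 102431_at gave 794 in clone 42 and 913 in puroB, against 277 in clone 48 and 246 in puroD. The clones of the first pair were thus high and those of the other pair low, whichever label they had. Likewise, 102742_g_at gave 307 in clone 42 and 457 in puroB, against 115 in clone 48 and 138 in puroD. This probe set exceeded the brightness filter in clone 42 and puroB alone, so a difference between the pairs was a condition of its being tested. At 102743_at clone 42 and puroB read 367 and 578, while clone 48 and puroD read 197 and 201. PuroB exceeded puroD 3.71-fold, 3.32-fold and 2.88-fold at the 3 probe sets, and clone 42 exceeded clone 48 by 2.87-fold, 2.67-fold and 1.86-fold. Over all tested probe sets, puroB exceeded puroD at least 2-fold at 3.02%, and clone 42 exceeded clone 48 so at 6.15%. Between the labels the mean log2 difference of Mapt was -0.02 ± 0.29, -0.42 ± 0.34 and -0.34 ± 0.31 (limma adjusted p between 0.905 and 1.00), with overlapping groups at each probe set. At 102431_at the sign turned under median scaling (0.15) and quantile normalization (0.080). Without clone 48 the differences of the 3 probe sets were 0.74, 0.29 and 0.11, and without puroB 0.93, 0.45 and 0.42. The 3 probe sets report on 1 gene and are not independent.

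**Figure D2:**
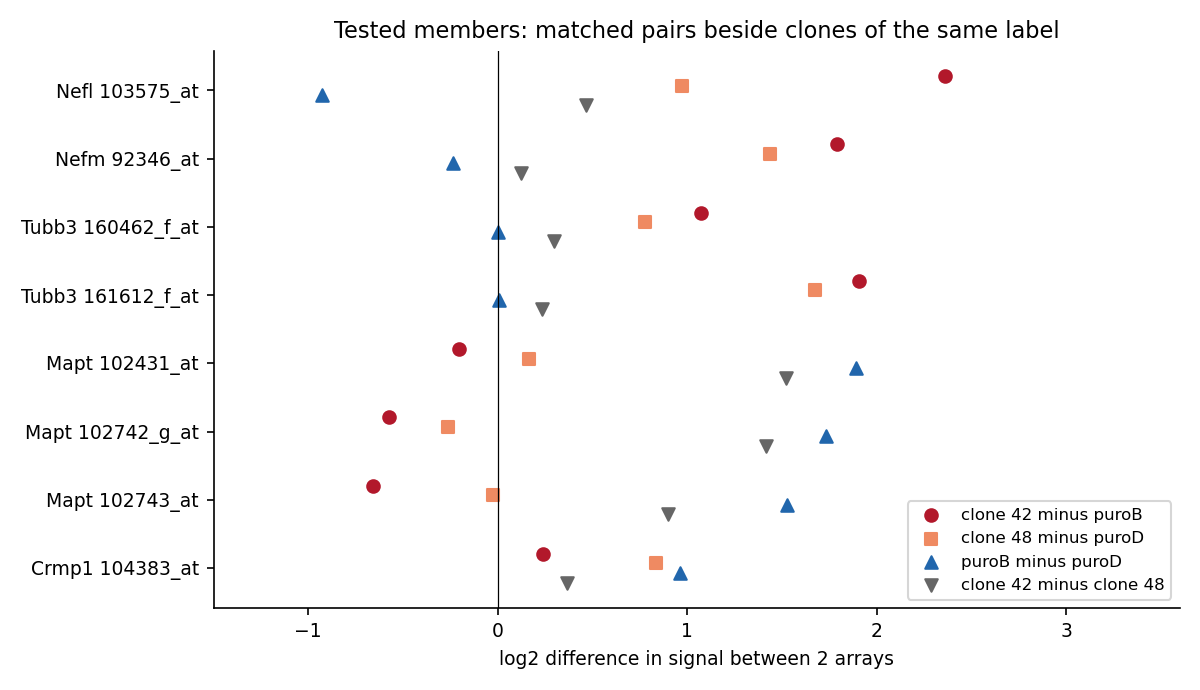
log2 difference in signal between 2 arrays for each of the 8 tested member probe sets, with 1 point for each matched pair, for puroB minus puroD and for clone 42 minus clone 48. For Nefm and both Tubb3 probe sets the matched pairs lie beyond the differences between clones of the same label, whereas for the 3 Mapt probe sets the differences within a label (0.90 to 1.89) exceed those of the pairs (-0.66 to 0.17).

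Crmp1 (104383_at) was lowest in puroD, and the other clones lay closer together. It read 818 on clone 42 and 635 on clone 48, while puroB read 693 and puroD 356. The groups overlapped, since puroB exceeded clone 48. The ratio was 1.18 in the pair of clone 42 and 1.79 in the pair of clone 48, while puroB exceeded puroD 1.95-fold. The mean log2 difference was 0.54 ± 0.30 (limma adjusted p = 0.808). It was 0.057 without puroD, 1.02 without puroB, 0.36 without clone 42 and 0.72 without clone 48.

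Gap43 and Map1b gave no signal above background. Map1b (99928_at) lay between 31.2 and 37.3 on the 4 arrays, and Gap43 (102389_s_at) gave 40.9 and 28.2 in the Nurr1-labelled clones and 49.7 and 43.3 in the controls. All 8 values were under the background level of their array, so no ratio is given, and these probe sets do not show whether the transcripts were present.

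Set side by side, the members did not all differ in the same direction. Of the 8 tested probe sets, for 5 genes, 4 had an unadjusted p under 0.05 in limma (Nefl, Nefm and both of Tubb3), against 7.38% of all tested probe sets in either direction and 2.32% higher. At these 4 the groups also did not overlap, a pattern shared in that direction by 12.8% of all tested probe sets, and no tested member lay wholly lower (17.9% of all tested). Over all 13 member probe sets the groups did not overlap for 4 higher (8.46% of all gene probe sets) and 4 lower (14.7%), the latter being Nefh, Map2, Dpysl3 and Gap43, which was under background throughout. Nefm and 161612_f_at of Tubb3 were at least 2-fold higher in both pairs, which held for 0.327% of all tested probe sets. In single pairs, 4 members were at least 2-fold higher in clone 42 than in puroB (3.57% of all tested) and 2 in clone 48 than in puroD (1.67%). The median log2 difference over the 8 was 0.66 in the pair of clone 42 and 0.81 in that of clone 48, and 0.48 between puroB and puroD; over all tested probe sets these medians were -0.06, -0.03 and 0.07. These counts and medians describe probe sets that passed the brightness filter and are no support for a difference of the genes as a group. Nefm passed the filter through the Nurr1-labelled clones alone, and 102742_g_at of Mapt through clone 42 and puroB alone.

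**Figure D3:**
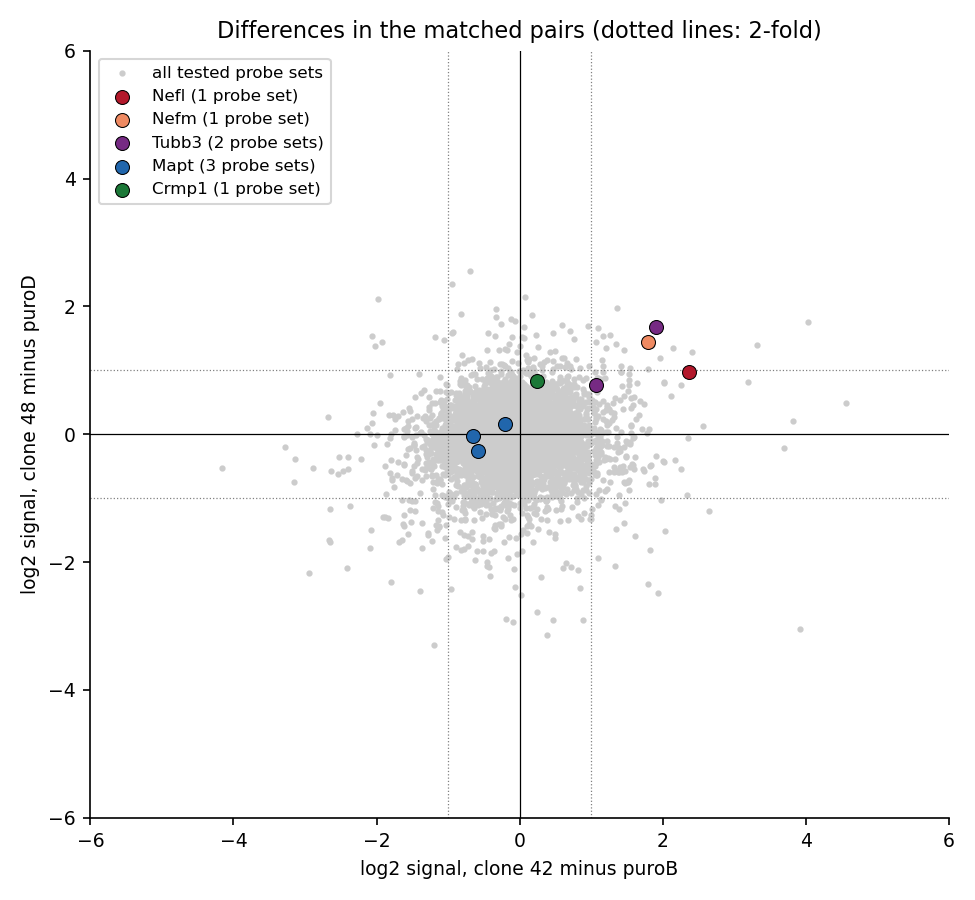
log2 difference of clone 42 minus puroB (x axis) against clone 48 minus puroD (y axis) for all 6419 tested probe sets (grey) and the 8 tested member probe sets (coloured by gene), with dotted lines at 2-fold. Nefm and 1 Tubb3 probe set lie beyond 2-fold on both axes, Nefl is at 2.36 and 0.97, and the Mapt and Crmp1 points lie within the bulk of the grey points.

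Other features of the arrays differed as well, only some of them by label. For the actin control, 3' signal divided by 5' signal, which reflects RNA integrity and labelling, came to 1.68 for clone 42 beside 1.51 for puroB and to 2.41 for clone 48 beside 2.003 for puroD. This ratio was higher in the Nurr1-labelled clone of each pair, but puroD exceeded clone 42, so the groups overlapped. The arrays of clone 48 and puroD both exceeded those of clone 42 and puroB, the same split of the arrays as for Mapt. The same ratio for the Gapdh control came to 0.94 for clone 42, 0.86 for puroB, 1.24 for clone 48 and 0.97 for puroD. Among 7 fibroblast and mesenchymal markers, all with a probe set, the summed signal was 6034 to 8890 in the Nurr1-labelled clones and 2936 to 4060 in the controls. Of these 7, Acta2, the smooth muscle actin, lay under background on every array, whereas Col3a1, a fibrillar collagen, gave 5015 and 4006 against 1287 and 1749. Without Col3a1 the sums overlapped, at 3874 and 2029 in the Nurr1-labelled clones and 1648 and 2311 in the controls. The other tested markers of this list were the collagen genes Col1a1 at -0.63 and Col1a2 at 1.15 (2.36 and -0.07 in the pairs) and the fibronectin gene Fn1 at -0.08, on the log2 scale. The other tested probe set of Col1a2 had -0.03. Of 7 astrocyte markers 5 had a probe set, with a summed signal of 796 to 1764 in the Nurr1-labelled clones and 823 to 1092 in the controls. The water channel Aqp4 lay under background on every array, whereas S100b was above it on every array. Of 8 progenitor markers 7 had a probe set, with sums of 4403 to 4500 and 5356 to 5385. Without Fabp7 these overlapped as well, at 3839 and 4343 in the Nurr1-labelled clones and 4064 and 3847 in the controls. The part of RNA integrity and of these cell types in the differences of Tubb3, Nefl and Nefm was not tested. Nor was the part of RNA integrity in the difference of Mapt between the matched pairs.

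The remaining marker lists each held genes under background on every array and others above it on every array. Above it throughout were Mbp and Mag of the oligodendrocyte list, Cd14, C1qb and Csf1r of the microglia and macrophage list, and Pecam1 and Eng of the endothelial list. Of 7 oligodendrocyte markers 4 had a probe set, with a summed signal of 225 to 287 in the Nurr1-labelled clones and 285 to 376 in the controls, and the myelin genes Mog and Cnp were under background throughout. Of 7 microglia and macrophage markers, all with a probe set, Aif1, Ptprc and Itgam were under background throughout, with sums of 518 to 711 and 784 to 819. Of 5 endothelial markers, all with a probe set, the adhesion gene Cdh5 and the receptor gene Tek were under background throughout, with sums of 3399 to 4158 and 4268 to 4589 that came mostly from Eng.

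Genes around the members in the same processes were taken from 8 lists. Of their 110 genes, 92 had a probe set and 61 were tested, each through its brightest tested probe set. None of the 61 was called in limma, and 3 had an unadjusted p under 0.05 (Tubb4a, Plxna3 and Sox11). Of the 61, 15 were higher in both pairs and 15 lower in both, against 21.7% and 29.7% of all tested probe sets. Their median log2 difference was -0.0035.

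Other tubulins gave smaller differences than the called Tubb3 probe set. Among 10 tested tubulin and tubulin-folding genes, both pairs were higher for 3 and lower for 1, with a median log2 difference of 0.09 and 0 calls. Tubb4a, a brain beta-tubulin, came nearest: clone 42 read 2054 and clone 48 read 1377, while puroB read 1384 and puroD 657. Its groups overlapped, puroB exceeded puroD by 1.08 on the log2 scale, and its mean difference was 0.82 ± 0.31 (limma adjusted p = 0.478). Tuba1a, the main neuronal alpha-tubulin, differed by 0.31 and Tubb2a by 0.30, and the folding factor Tbca by 0.24 (0.94 and -0.45 in the pairs). The other tested probe set of Tubb2a had -0.06 and that of Tuba1a 0.15. Whether Tubb3 differed from these genes was not tested.

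Among other intermediate filaments, the neuronal filament genes Ina and Prph lay under background on all arrays, at most 24.3 and 11.5. Of 3 tested genes of this list 1 was higher and 0 lower in both pairs, with a median of 0.11: the nuclear lamins Lmna at 0.27 and Lmnb1 at -0.41, and Nes at 0.11. Lmna had 0.69 at its other tested probe set. Vim, the filament of progenitors and mesenchymal cells, was too dim to be tested at probe set 101046_at, with 84.5 and 61.4 in the Nurr1-labelled clones against 29.8 and 57.6 in the controls. Both Nurr1-labelled arrays were above their background level and both controls under theirs, although puroD lay close to its level of 59.0. This arrangement, the reverse of that of Nefh, occurred at 0.5% of all gene probe sets.

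Among 11 tested microtubule-associated and microtubule-regulating genes, 1 was higher and 2 lower in both pairs, with a median of -0.0011. The depolymerising kinesin Kif2a had -0.51 and the plus-end protein Clip1 -0.40. The plus-end protein Mapre1 had 0.21 and the neuronal stathmin Stmn2 -0.17 (0.25 and -0.59 in the pairs). At its other tested probe set Mapre1 had 0.01. Dcx, the doublecortin of migrating neurons, was above background on 1 array alone, puroB at 60.3, and was not tested.

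Both pairs were higher for 1 and lower for 3 of 6 tested axonal transport motor genes (median -0.21), with Kif3b at -0.60, the dynein heavy chain Dync1h1 at -0.48, Kif1b at -0.39 and Kif5b at 0.27. The neuronal kinesins Kif1a and Kif5c lay under background on all arrays. Of 5 tested genes of collapsin response mediators and semaphorin signalling, 0 were higher and 2 lower in both pairs (median -0.16). The semaphorin receptor Plxna3 had -0.71 ± 0.30 (limma adjusted p = 0.575), the co-receptor Nrp1 -0.35, the ubiquitous mediator Dpysl2 -0.16 and the GTPase Rac1 -0.16. Nrp1 had -0.08 at its other tested probe set.

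Both pairs were higher for 5 and lower for 3 of 10 tested growth cone and neurite outgrowth genes (median 0.19). The calcineurin subunit Ppp3ca had 0.58, the protein kinase C substrate Marcks 0.51, the outgrowth inhibitor Rtn4 0.41 and the other calcineurin subunit Ppp3cb -0.36. Of 8 tested tau and MAP kinases and phosphatases, 2 were higher and 2 lower in both pairs (median -0.06), with Ppp2r2a at -0.43, Mapk9 at -0.40, Ppp2ca at 0.39 and Mapk8 at -0.32.

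Of 8 tested regulators of neuronal transcription, both pairs were higher for 2 and lower for 2 (median -0.05). Sox11, a transcription factor of immature neurons, read 74.6 on clone 42 and 904 on clone 48, while puroB read 1330 and puroD 1301. Clone 42 alone was far from the others, and the mean log2 difference was -2.34 ± 0.56 (-4.16 and -0.53 in the pairs; limma adjusted p = 0.128). Myt1l, a zinc finger factor of neurons, had 0.90 (1.78 and 0.03), with puroB the low array. Rest, the repressor of neuronal genes in non-neuronal cells, had 0.35 (limma adjusted p = 0.929). Sox4 had -0.32 at probe set 101430_at and 0.34 at its other tested probe set. The proneural factors Neurod1, Neurog1 and Neurog2 lay under background on all arrays.

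**Figure D4:**
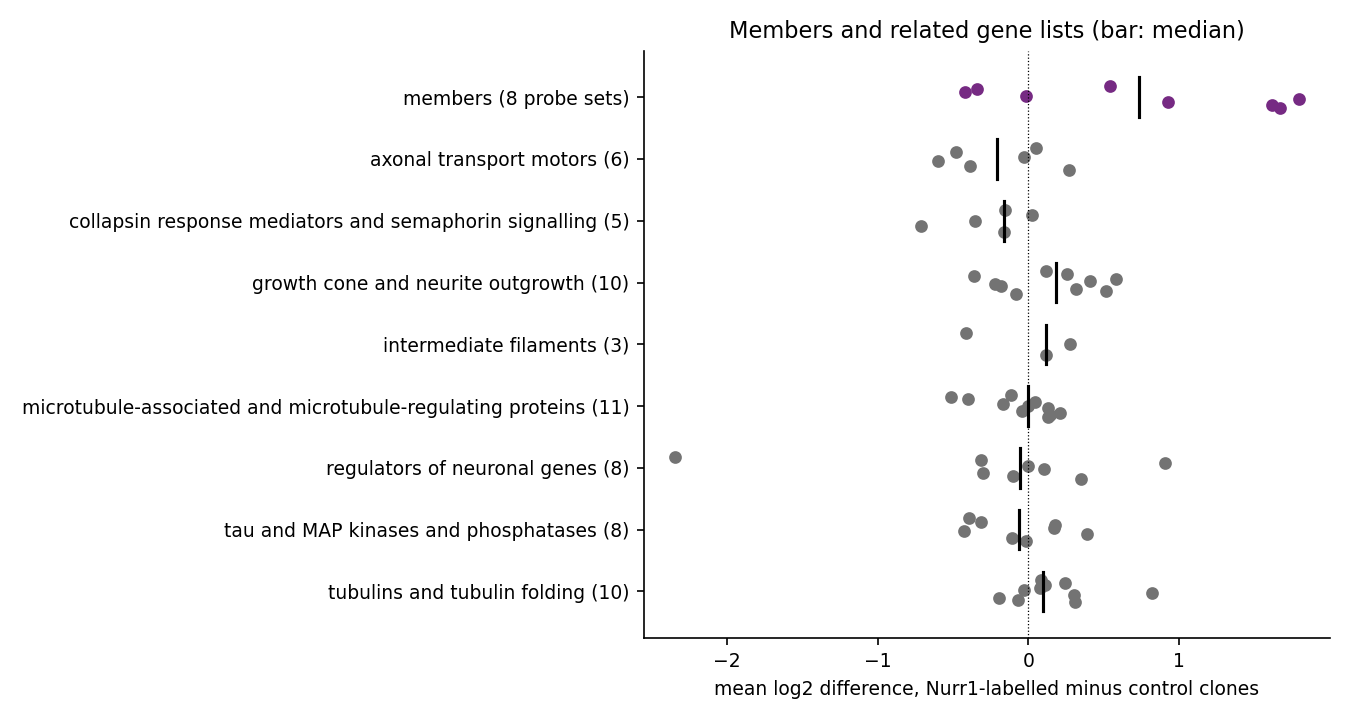
Mean log2 difference, Nurr1-labelled minus control clones, of the 8 tested member probe sets and of the tested genes of 8 related lists (1 point per probe set or gene; the bar is the median; the number tested is in parentheses). The members spread from -0.42 to 1.79, and the list medians lie between -0.21 and 0.19; Sox11 is the point at -2.34.

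The genes whose signals ran closest to Nefl, Nefm and Tubb3 over the 4 arrays included collagen chains and a hair keratin. Likeness was the root mean square distance between log2 signals centred on their own mean, among 5812 tested probe sets of other genes; with 4 arrays many profiles lie close by, and nothing follows on shared control. Closest to Nefm was Krt81, a hair keratin, at a distance of 0.036 (clone 42 read 503 and clone 48 read 431, while puroB read 139 and puroD 163), followed by Col3a1 at 0.10 (98331_at) and 0.16 (102990_at). Closest to 161612_f_at of Tubb3 were Krt81 at 0.12, Glipr2 at 0.16 and Col3a1 at 0.19. The distance between that Tubb3 probe set and Nefm was 0.13, and that between Nefl and Nefm 0.27. Closest to Nefl were the 2 Col3a1 probe sets at 0.18 and 0.20 and Urm1, a ubiquitin-like modifier, at 0.22. Closest to 160462_f_at of Tubb3 were Col6a2, a collagen VI chain, at 0.054, the methionine sulfoxide reductase Msrb1 at 0.063 and Tmem268 at 0.073.

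**Figure D5:**
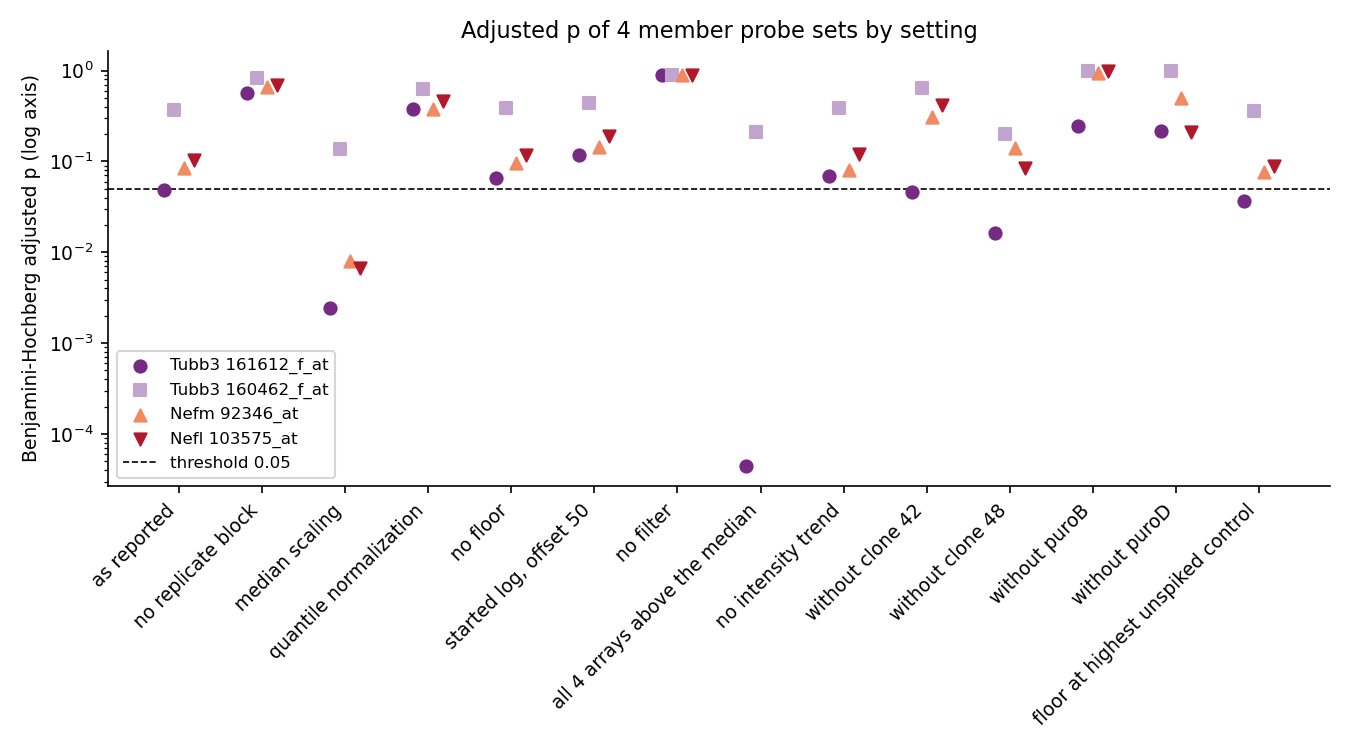
Benjamini-Hochberg adjusted p (log axis) of 4 member probe sets in limma as reported and under each other setting, with the threshold of 0.05 as a dashed line. The Tubb3 probe set 161612_f_at lies under the line in 6 of 14 settings and the other Tubb3 probe set in none; Nefm and Nefl lie under it with median scaling alone.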

How the data were processed

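Total RNA from 4 clonal c17.2 lines was labelled as biotinylated cRNA and hybridised to Affymetrix mouse arrays, 1 per line, per the labels' protocols. The deposited values are MAS5 intensity signals on a linear scale, per the submitters' processing notes; no source used here gives the version, the target of the scaling or the detection calls. The deposited 2% trimmed means were 500.4 to 500.5, and each array was rescaled to 500. The number of arrays limits the precision.

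Of 12403 gene probe sets (66 array controls left out), 10814 had 1 gene symbol in the platform annotation, 396 several and 1193 none; symbols were checked through Entrez identifiers against the RefSeq table of GRCm38.p6, and 0 changed. Signals were floored at 40.3, the 30th percentile, and taken to log2. The 6419 probe sets above 145, the median of all values, on at least 2 arrays were tested with limma 3.58.1 in R 4.3.3 (matched pair as a block, intensity trend, Benjamini-Hochberg threshold 0.05), which left 1 residual degree of freedom per probe set before limma's moderation. The method was tested on simulated data. Their noise was independent and of the same size for all probe sets, with no effect of the pair. That test therefore does not bear on the block or the intensity trend. The pairs come from the labels, which match lines by proliferation rate; deviations from the group means correlated at r = 0.19 across probe sets within pairs. A signal under the highest of 15 controls not spiked in was called under background, and a fold against it used that level as a bound.

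All probe sets of the members were described, with the 3 closest profiles to each tested probe set of Nefl, Nefm and Tubb3, up to 4 genes per related list with the largest difference, and Nr4a2. Further genes of the lists, such as Ina, Prph, Vim, Dcx, Kif1a and Kif5c, and the single cell type markers, were named after their values were seen, and so was the choice to leave Col3a1 and Fabp7 out of marker sums. The members and lists were chosen with earlier results of these data known. Alternatives covered scaling, floor, filter, trend, block and leaving out each array.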

Additional observations from a re-analysis of the deposited data

Results flagged for a closer look

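Mapt at probe set 102431_at differed in opposite directions in the matched pairs, by -0.20 on the log2 scale in clone 42 minus puroB and by 0.17 in clone 48 minus puroD. The difference between these was -0.37. It was not tested, since each clone had 1 array. Both pair differences were smaller than 0.29, the SE of their mean. The other Mapt probe sets were lower in both pairs (-0.57 and -0.26 at 102742_g_at, -0.66 and -0.03 at 102743_at). Over all tested probe sets, 21.7% were higher in both pairs and 29.7% lower in both, so opposite signs were common.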

How the results depend on the processing

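Of 126 values of single member probe sets under another setting, 97 were counted as the same. Of the others, 8 reversed direction, 8 lost a call, 2 gained one, and 11, all of members too dim to be tested, changed in size. The Tubb3 probe set 161612_f_at lost its call in limma without the replicate block (1.79, adjusted p = 0.566), with quantile normalization (1.77, 0.381), without a floor (1.79, 0.0649), with a started log (1.73, 0.118), without the filter (1.79, 0.903) and without the intensity trend (1.79, 0.0691). In each of these settings 0 member probe sets passed, against 3 with median scaling. Leaving out 1 array at a time, in fits without the pair, moved this difference between 1.67 and 1.91 and the number passing between 0 and 1. The median over tested members was 0.73 as reported, 0.90 with median scaling, 0.54 for the 5 probe sets above the median signal on all 4 arrays, -0.018 over all 13 probe sets without the filter, and 0.49 to 0.97 when 1 array was left out. With median scaling the pair medians were 0.78 and 1.02, and 4 members were at least 2-fold higher in clone 48 than in puroD. Mapt reversed at 102431_at with median scaling (0.15) and quantile normalization (0.080). Leaving out 1 array moved the 3 Mapt probe sets from -0.96 to 0.93 (102431_at), from -1.28 to 0.45 (102742_g_at) and from -1.11 to 0.42 (102743_at). The cause of these changes was not tested. Over all probe sets, calls numbered 7 as reported, 56 with median scaling (39 higher, 17 lower), 49 with the stricter filter (27 higher, 22 lower), 7 without the intensity trend (1 higher, 6 lower), and 0 in limma without the block (287 at an unadjusted p under 0.05), with quantile normalization (372), without a floor (473), with a started log (457) and without the filter (560). They numbered 17, 51, 0 and 2 without clone 42, clone 48, puroB and puroD. A floor at the highest control not spiked in, chosen after seeing the data, gave 8. Fitted differences of the dim members depended on the floor, as for Map2 at -1.30 with that floor and -3.48 with none.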
